A study of Mus musculus with 7 samples.

Results

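The genes described here write, copy and remove methyl groups on cytosine in the mouse genome, and the measurement is where DNA replication started in and around them. The members were chosen by name, without use of any measured value, though with earlier results of these data known. Dnmt1 and Uhrf1 were taken for copying methylation, Dnmt3a, Dnmt3b and Dnmt3l for new methylation, and Tet1, Tet2 and Tet3 for removal. They are 8 of 21631 protein-coding genes on the autosomes and X, and each was taken with its RefSeq gene body on mm10 plus 5 kb on each side. The 8 windows held 10 origins of the WT list, 13 of the APH list and 16 of the CDC6 list. They held 47, 22, 26, 27, 31 and 37 peaks in the libraries WT 1, WT 2, APH 1, APH 2, CDC6 1 and CDC6 2.

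Cytosine methylation in mammals lies mostly at CG pairs. After a replication fork has passed, the new strand is unmethylated, UHRF1 binds such half-methylated pairs, and DNMT1 copies the mark onto the new strand. DNMT3A and DNMT3B place the mark on unmethylated DNA, helped by DNMT3L, which has no catalytic activity of its own. TET enzymes oxidise the methyl group and so open a way to its removal. Mouse embryonic stem cells are known to express all of these pathways, with TET1 and TET2 as the main oxidases. Replication origins in these cells are known to lie often at CG-rich gene starts.

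Short nascent strands, the short pieces of DNA made just after a fork starts, were size-selected, treated with λ-exonuclease and sequenced from mouse embryonic stem cells (mESCs). The WT cells were untreated. APH cells were held in 0.5 µM aphidicolin, which blocks the replicative DNA polymerases, over 2.5 h. CDC6 cells were given doxycycline at 1 µg/ml over 30 h, so that they overexpress CDC6, which takes part in loading the replicative helicase. For each condition there were 2 libraries and a single origin list. WT 1 came from another mESC line labelled as wild type, grown in another medium and submitted earlier. WT 2 and the 4 stressed libraries came from TetO-CDC6 mESCs, made from the mouse model of that name, so WT 2 and APH cells carried the transgene without doxycycline. No doxycycline-treated cells without the transgene were among the samples, and DNA libraries do not show whether CDC6 was induced or what cell type was sequenced. Whether the 2 APH or the 2 CDC6 libraries stem from separate cultures is not in the labels, and their spread may be technical. The 2 WT libraries differ in cell line, medium and submission, so their spread includes these differences. They were nevertheless treated as replicates of 1 condition, and p-values reflect the spread among these libraries alone.

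The libraries held between 71435 peaks (APH 2) and 94747 peaks (WT 1), and their read depth is unknown, so the number of peaks limits the precision. Among the 16405 merged sites in coding-gene windows with a peak in every library, the median fold over control was 2.85 in WT 2 and between 3.34 and 3.56 in the other 5 libraries. The condition lists held 20178 origins in WT, 31653 in APH and 31384 in CDC6. A second list was deposited for each library, and its labels went against those of the peak lists: all rows of the WT condition list stood in the second list labelled APH 1, those of the APH list in the one labelled CDC6 1, and those of the CDC6 list in the one labelled CDC6 2. The peaks of both libraries of the named condition overlapped 99.4% to 100% of its origin list. Condition and peak lists are used below under their own labels.

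The members differed in whether an annotated start had an origin, so the sequences of 6 of their 15 starts are shown: the starts with the highest mean fold over the libraries (Tet2, Dnmt3b), the maintenance pair (Dnmt1, Uhrf1), a CG-poor start with a peak in every library (Dnmt3l), and one without an origin (Tet1). Each runs 5′ to 3′ in the direction of transcription, from 250 bases before to 50 bases after the start, as RefSeq gives it for GRCm38.p6. Capitals mark every CG pair.
Tet2, chr3:133544341-133544640, minus strand: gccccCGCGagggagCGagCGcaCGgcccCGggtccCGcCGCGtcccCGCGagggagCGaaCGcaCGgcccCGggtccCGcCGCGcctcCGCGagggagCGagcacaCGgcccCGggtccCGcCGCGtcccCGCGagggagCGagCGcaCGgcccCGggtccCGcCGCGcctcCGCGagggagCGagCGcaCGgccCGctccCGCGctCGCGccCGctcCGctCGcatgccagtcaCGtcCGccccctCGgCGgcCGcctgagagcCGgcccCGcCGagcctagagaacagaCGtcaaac
Dnmt3b, chr2:153649199-153649498, plus strand: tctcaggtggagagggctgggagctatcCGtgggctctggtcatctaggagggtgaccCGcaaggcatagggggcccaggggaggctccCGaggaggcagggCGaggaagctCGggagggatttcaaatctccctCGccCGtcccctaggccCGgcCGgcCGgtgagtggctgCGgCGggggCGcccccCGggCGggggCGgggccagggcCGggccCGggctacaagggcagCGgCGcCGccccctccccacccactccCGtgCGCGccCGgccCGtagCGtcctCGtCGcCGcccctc
Dnmt1, innermost start, chr9:20952574-20952873, minus strand: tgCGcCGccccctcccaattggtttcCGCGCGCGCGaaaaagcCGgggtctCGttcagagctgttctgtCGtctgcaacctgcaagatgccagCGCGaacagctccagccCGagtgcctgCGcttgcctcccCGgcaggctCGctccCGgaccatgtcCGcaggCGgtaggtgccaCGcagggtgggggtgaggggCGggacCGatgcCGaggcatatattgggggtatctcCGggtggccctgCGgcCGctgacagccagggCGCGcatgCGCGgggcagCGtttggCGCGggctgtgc
Uhrf1, second start, chr17:56304063-56304362, plus strand: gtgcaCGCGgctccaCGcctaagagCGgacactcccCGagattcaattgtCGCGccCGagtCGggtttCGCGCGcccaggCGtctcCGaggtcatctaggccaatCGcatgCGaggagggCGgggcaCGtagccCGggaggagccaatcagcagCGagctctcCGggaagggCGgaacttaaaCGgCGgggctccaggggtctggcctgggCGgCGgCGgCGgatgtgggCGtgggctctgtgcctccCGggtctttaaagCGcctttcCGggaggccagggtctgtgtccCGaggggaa
Dnmt3l, second start, chr10:78049592-78049891, plus strand: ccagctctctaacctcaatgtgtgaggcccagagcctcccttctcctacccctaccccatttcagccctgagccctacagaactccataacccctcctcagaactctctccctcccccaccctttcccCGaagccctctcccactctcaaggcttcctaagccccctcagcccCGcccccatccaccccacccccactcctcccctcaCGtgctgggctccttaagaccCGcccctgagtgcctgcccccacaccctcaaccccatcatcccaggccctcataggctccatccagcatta
Tet1, chr10:62887275-62887574, minus strand: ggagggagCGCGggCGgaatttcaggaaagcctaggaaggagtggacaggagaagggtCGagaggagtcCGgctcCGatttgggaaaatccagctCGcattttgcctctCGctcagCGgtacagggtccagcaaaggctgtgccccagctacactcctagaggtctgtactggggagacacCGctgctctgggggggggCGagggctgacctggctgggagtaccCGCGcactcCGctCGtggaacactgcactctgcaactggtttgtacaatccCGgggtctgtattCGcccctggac
The Tet2 window holds 57 CG pairs, the Dnmt3b window 30, the Dnmt1 and Uhrf1 windows 33 each, the Tet1 window 17 and the Dnmt3l window 4. The median over 21045 annotated starts of coding genes was 13.

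Dnmt1, the methyltransferase that copies the mark at the fork, lies at chr9:20907206-20959888 on the minus strand and had 3 annotated starts in the RefSeq table. One origin region, chr9:20952040-20953276, covered the inner pair of starts, 7.23 kb into the gene body. It was listed under APH and CDC6 and not under WT, although each WT library had a peak there. The region merges the origins of these lists. The CDC6 origin overlapped both inner start windows, and the APH origin overlapped the innermost one alone. Values of a condition are given here and below for its library 1 and then its library 2. The authors' fold over the common control was 4.54 and 2.42 under WT, 2.96 and 3.55 under APH, and 4.20 and 3.70 under CDC6. WT 1 was thus the highest and WT 2 the lowest of the 6 libraries at this start. The outermost start of Dnmt1, with 2 CG pairs in its window, had a peak in WT 1 and CDC6 1 only and no origin.

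The body of Dnmt1 held 3 origin regions listed under a stress and not under WT. The region chr9:20938273-20939069 was listed under APH and had peaks in all 6 libraries, with folds from 2.32 in WT 1 to 3.61 in CDC6 1. The regions chr9:20913182-20913842 and chr9:20919452-20919898 were listed under CDC6 alone. The first of these had folds of 3.52 and 4.02 in the CDC6 libraries, 2.13 in WT 1 and 1.96 in APH 2, and no peak in WT 2 or APH 1. That order is not separate evidence, because the region was listed under CDC6 alone. The second had folds of 2.77 and 2.30 in the CDC6 libraries, 2.31 in WT 1 and 2.37 in APH 2, so the CDC6 and non-CDC6 folds overlapped. One weak region downstream of the gene, chr9:20903903-20904334, was listed under WT alone, with folds of 2.31 in WT 1, 1.98 in WT 2 and 2.08 in CDC6 1. In all, Dnmt1 had 1, 2 and 3 origins under WT, APH and CDC6, none of them at the same place in WT as under stress.

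Peaks at Dnmt1 differed more between the WT libraries than between the conditions. Their number was 9 and 3 under WT, 4 and 5 under APH, and 7 and 8 under CDC6. The CDC6 libraries lay above the APH libraries without overlap, and the 2 WT libraries lay on both sides of them. The share of all genes with CDC6 and APH numbers apart like this was not counted. With 9.57 peaks per 100 kb of window on average, Dnmt1 was the densest of the 8 genes.

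Uhrf1, the reader that brings DNMT1 to half-methylated CG pairs, lies at chr17:56303337-56323486 on the plus strand. It had 1 origin in each list, and that origin did not lie at its own start. The region, chr17:56325590-56326968, lay 22.9 kb from the 5′ end of the gene, in the downstream flank, and spanned position 56325970, where the body of the neighbouring gene Kdm4b begins. Kdm4b encodes a histone demethylase. The folds of this origin were close across libraries, 5.96 and 4.84 under WT, 5.93 and 6.11 under APH, and 5.80 and 6.09 under CDC6.

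The starts of Uhrf1 itself were weaker. A peak overlapped both start windows in 5 libraries, with a fold of 2.83 in WT 1, folds of 2.55 and 2.53 under APH, and folds of 2.35 and 2.46 under CDC6. WT 2 had none. No list held an origin there, although the second start window has as many CG pairs as that of Dnmt1. Peaks per library numbered 4, 1, 2, 3, 3 and 3 in the order WT 1, WT 2, APH 1, APH 2, CDC6 1 and CDC6 2, so the WT libraries held both the highest and the lowest number.

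Dnmt3a, one of the enzymes that place new methylation, lies at chr12:3801559-3914443 on the plus strand and is the longest member. It had 3 origin regions common to the WT, APH and CDC6 lists, of which 2 covered annotated starts. The region at the first pair of starts, chr12:3806045-3809123, had folds of 5.30 and 3.14 under WT, 7.60 and 7.21 under APH, and 6.12 and 7.19 under CDC6. WT 2 stood well below the others, and the APH and CDC6 libraries were all above both WT libraries. Within each library this peak ranked, by −log10 q-value, in the top 0.942% to 3.46% of all peaks, except in WT 2, where it was in the top 13.4%. The width of the listed origin was 2129 bp under WT, 2926 bp under APH and 2950 bp under CDC6.

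The other common regions of Dnmt3a were weaker. The third start, 90.2 kb into the body, lay in chr12:3890876-3891953, with folds of 3.84 and 3.38 under WT, 5.22 and 6.35 under APH, and 3.99 and 5.61 under CDC6. The APH and CDC6 libraries were all above both WT libraries there, with CDC6 1 just above WT 1. The region in the body, chr12:3856350-3857188, had folds between 2.64 in WT 2 and 3.88 in APH 1. One more region, chr12:3894598-3895398, was listed under CDC6 alone. In WT 1 and CDC6 1 it lay under the same wide peak as the third start, and in CDC6 2 it had a peak of its own with a fold of 4.28. Peaks at Dnmt3a numbered 11 in WT 1, 6 in WT 2, 6 in each APH library, 6 in CDC6 1 and 10 in CDC6 2.

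Dnmt3b, the second enzyme for new methylation, lies at chr2:153649411-153687730 on the plus strand and had a single origin, listed in all 3 conditions. It covered the annotated start at chr2:153648839-153650404. The folds were 6.29 and 4.69 under WT, 7.48 and 7.36 under APH, and 6.23 and 6.60 under CDC6. The APH libraries were the highest, WT 2 was the lowest, and CDC6 1 lay just below WT 1. The peak was in the top 0.908% to 2.67% of every library. The other 5 sites at Dnmt3b were each missing from at least 1 library, and the gene had between 2 and 4 peaks per library.

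Dnmt3l, the cofactor of the enzymes for new methylation, lies at chr10:78042287-78063622 on the plus strand. Its second annotated start, 7.56 kb into the body, had a peak in every library, with folds of 3.43 and 2.43 under WT, 3.66 and 2.66 under APH, and 2.72 and 2.26 under CDC6. The APH list alone held an origin there, chr10:78049371-78049879, while the folds of the 3 conditions overlapped. The first start had no peak in any library, and the third had one in WT 1 only. A further site began in the downstream flank and ran out of the window. It held a CDC6 origin that lay outside the window and was not counted, and the highest −log10 q-value of any site at Dnmt3l, 8.66 in CDC6 2. Inside the window Dnmt3l had 2 peaks in WT 1 and 1 in each other library.

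Tet1, a main oxidase of stem cells, lies at chr10:62804570-62887469 on the minus strand and was the only member without an origin in any list. Among its 4 sites none had a peak in all 6 libraries. The annotated start window had a peak in WT 1 (fold 2.66), APH 2 (2.43) and CDC6 1 (2.51), and a peak of fold 2.03 in APH 1 ended just short of it. WT 2 and CDC6 2 had none at the start. The highest −log10 q-value at any Tet1 site was 4.12, in WT 1 at the start, against 50.95 at the strongest site of Tet2. Tet1 had 3, 1, 2, 2, 3 and 1 peaks in WT 1, WT 2, APH 1, APH 2, CDC6 1 and CDC6 2, or 2.15 per 100 kb, the lowest density of the 8 genes.

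Tet2, the other main oxidase, lies at chr3:133463677-133545136 on the minus strand and carried the strongest origin of the 8 genes. The region chr3:133543707-133545264 covered its annotated start and was in all 3 lists. Folds were 7.79 and 5.32 under WT, 8.15 and 8.98 under APH, and 8.41 and 7.33 under CDC6. WT 2 was again the lowest, and the other 5 libraries overlapped between conditions. By −log10 q-value the peak had ranks 643 and 742 among all peaks of the WT libraries, 406 and 350 for APH, and 591 and 631 for CDC6, which is the top 0.490% to 0.915% of each library.

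Another Tet2 region, chr3:133507659-133508295, lay 37.2 kb into the body and was listed under APH and CDC6. Its folds were 2.18 and 2.29 under WT, 3.25 and 2.90 under APH, and 2.59 and 3.14 under CDC6. Here all 4 stressed libraries lay above both WT libraries, yet each WT library had a peak. This order is not separate evidence, because the region was one of those listed under stress and not under WT. Tet2 had between 3 and 5 peaks per library, with 4 in each WT library.

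Tet3, the TET enzyme best known from the egg and early embryo, lies at chr6:83362373-83457208 on the minus strand and had the most listed origins, 3 under WT, 3 under APH and 5 under CDC6. The strongest lay at the 5′ end of the body, chr6:83455226-83457334, with folds of 5.37 and 2.73 under WT, 5.99 and 6.09 under APH, and 5.60 and 6.50 under CDC6. Its listed width was 702 bp under WT, 1706 bp under APH and 2040 bp under CDC6. Not every common region had this order of widths. At chr6:83403514-83405233 the origin was widest under WT, with 1597 bp against 819 bp under APH and 741 bp under CDC6. Widths were close between lists at Uhrf1, Dnmt3b and the Tet2 start. WT was also the narrowest at the annotated Tet3 start, the third Dnmt3a start and the Dnmt3a body region. By fold, the APH and CDC6 libraries were all above both WT libraries at this 5′ end. WT 2 was the lowest, and there the peak was in the top 26.7% of the library, against the top 1.64% to 4.51% elsewhere.

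The single Tet3 start in the RefSeq table lies 15.5 kb further in and was in chr6:83441271-83442421, listed in all 3 conditions with folds between 2.50 in WT 2 and 3.61 in CDC6 1. Both WT libraries were below all stressed libraries at this start. The remaining common region, chr6:83403514-83405233, lay 52.8 kb into the body with folds between 2.75 in WT 2 and 4.16 in CDC6 1. The remaining pair was listed under CDC6 alone. At chr6:83422109-83422723 the folds were 3.06 and 2.97 in the CDC6 libraries and 2.31 in WT 1, with no peak in WT 2 or APH. At chr6:83368077-83368699 they were 2.49 and 2.37 in the CDC6 libraries, 2.38 in WT 1 and 2.03 in WT 2, so CDC6 and WT overlapped. The order at the first of these regions is not separate evidence, because it was listed under CDC6 alone. Peaks at Tet3 numbered 9 in WT 1, 4 in WT 2, 4 in APH 1 and 5 in each of the others.

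**Figure D1:**
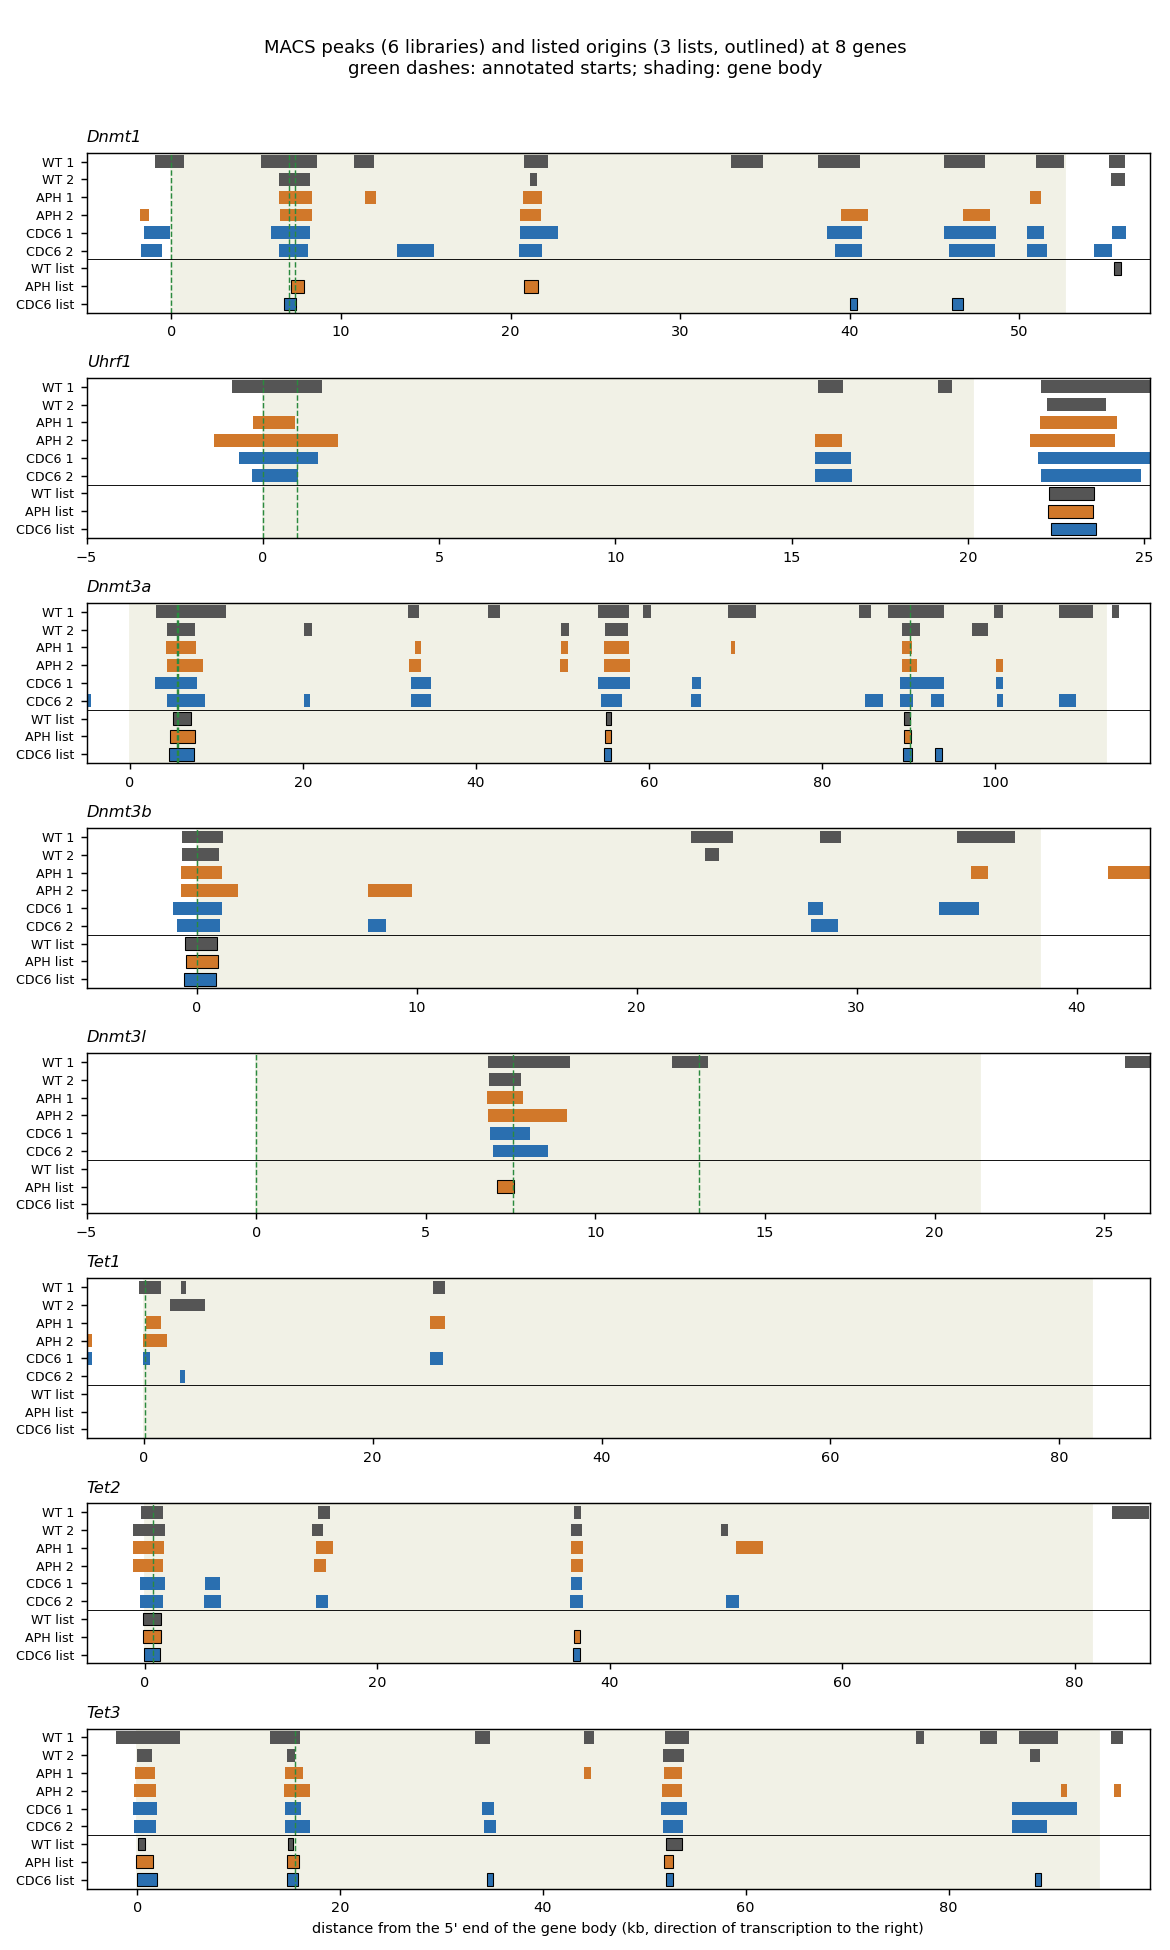
Peaks of the 6 libraries and origins of the 3 lists (outlined) at the 8 genes. The x axis is the distance in kb from the 5′ end of the gene body, with transcription to the right, shading marks the body and dashed green lines mark annotated starts. Common origins sit at the starts of Dnmt3a, Dnmt3b and Tet2 and at the 5′ end of Tet3, while the 3 list rows are empty at Tet1.

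The members differed at their annotated starts. Of 15 annotated starts, 9 in 6 genes had a peak in all 6 libraries, against 32.7% of 21045 starts of coding genes. Of the 15, 1 had no peak in any library, against 38.2%. By gene this was 6 of 8, against 34% of 17274 coding genes with an annotated start. The inner pair of Dnmt1 starts shared its peaks, as did the first pair of Dnmt3a starts, so some peaks count at more than 1 start. The members also had more starts per gene than coding genes at large, and no share matched for starts was computed. Backgrounds here and below cover coding genes whether expressed or not, whereas stem cells are known to express the members' pathways. No share limited to expressed genes was computed. An origin lay at a start of 4 members in the WT list, 6 in the APH list and 5 in the CDC6 list, with backgrounds of 27.9%, 28.9% and 36.1%. Listed origins thus lay at the starts of Dnmt3a, Dnmt3b, Tet2 and Tet3 in every condition, at that of Dnmt1 under both stresses and at that of Dnmt3l under APH alone.

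The 9 member starts with a peak in all 6 libraries had a median of 30 CG pairs and 74% GC. All coding starts had medians of 13 CG pairs and 56.7% GC, those with a peak in all 6 libraries 26.5 and 66.7%, and those with none 3 and 47.3%. The members' most CG-rich windows were those of Tet2 with 57 pairs and of the first starts of Dnmt3a with 46 and 47, and these were also among the highest in fold. The order did not hold throughout. The second start window of Uhrf1 had 33 pairs and no origin, and the second start of Dnmt3l had 4 and a peak in every library.

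A motif of 4 runs of at least 3 G, separated by 1 to 7 bases of any kind, was searched on both strands, because such runs can fold into G-quadruplexes. It was present in 7 of the 15 member windows (46.7%), against 22.3% of all coding starts, 40.8% of those with a peak in all 6 libraries and 6.15% of those with none. Dnmt3b had it on both strands. The Tet2 window had none, and it was on one strand at Tet3, at the innermost Dnmt1 start, at the inner pair of Dnmt3a starts and at the inner pair of Dnmt3l starts. The motif can share letters with CG pairs, and a match describes these letters only.

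The 8 genes together had 19 merged origin regions, which shows how the lists divided them. All 3 lists held 9, CDC6 alone 5, APH alone 2, APH with CDC6 2, and WT alone 1. Among 26683 regions in windows of coding genes, 33.2% were in all 3 lists, 21.6% in CDC6 alone, 14.8% in APH alone, 13.7% in both stress lists without WT, and 7.22% in WT alone. The members' 9 of 19 in all lists and 5 of 19 in CDC6 alone were read against these shares and no test was made. At 8 of the 19 an annotated start or the 5′ end of the body was covered, 9 lay inside the body and 2 in a flank.

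At the members as at other genes, many regions missing from the WT list had a peak in a WT library. All 9 member regions without a WT origin had a peak in WT 1, against 67% of 13346 such regions in coding windows, and 5 had one in both WT libraries, against 40.4%. Those 5 were the Dnmt1 start, the Dnmt1 region listed under APH, the start of Dnmt3l, the Tet2 body region and 1 Tet3 region. Of the 5 regions listed under CDC6 alone, all had a peak in WT 1 (72.9% of 5756 such regions in coding windows), 1 had one in WT 2 (48.2%) and 0 had one in both APH libraries (40.5%). WT 1 also had the most peaks of any library, and its part in these counts was not tested.

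Members with at least 1 origin numbered 6 of 8 in WT, 7 of 8 in APH and 6 of 8 in CDC6. The background over all coding genes was 48.1%, 53.6% and 58.5%, and over the 7860 coding genes with a body in the members' range of length it was 60.5%, 66.6% and 71.5%. The number of origins in the 8 windows was 1.3 times the WT number in APH and 1.6 times in CDC6, against 1.57 and 1.56 times for the whole lists. With 1 list a condition these counts have no replicate error. Without the flanks, Uhrf1 and the downstream origin of Dnmt1 drop out, and 4, 6 and 5 members had an origin.

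**Figure D2:**
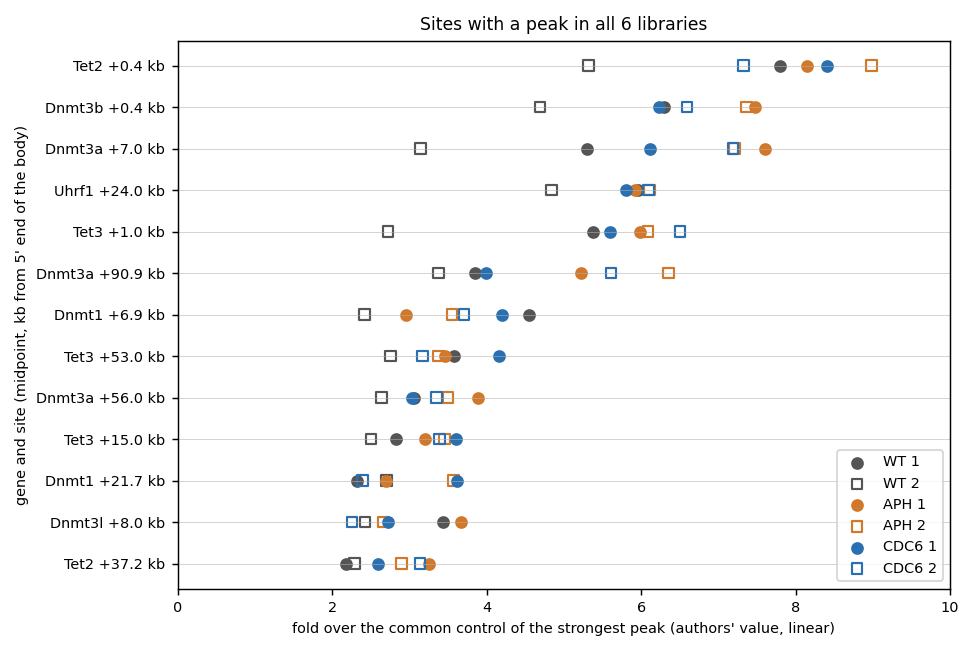
Fold over the common control of the strongest peak at the 13 sites of the 8 genes with a peak in all 6 libraries, as the authors gave it on a linear scale, 1 point per library. Sites are named by gene and distance from the 5′ end in kb, and WT 2 (open grey squares) is the lowest point at 10 of the 13.

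The peaks of the 6 libraries merged into 58 sites at the members. A peak in all 6 libraries was found at 13 (22.4%), against 19.5% of 84173 sites in coding windows, and in 1 library alone at 11 of the 58, against 38.3%. All 13 shared sites held a listed origin, as did 90.2% of shared sites in coding windows. Of the 11 sites in a single library, 9 were in WT 1, against 50.9%. Without WT 1 the number of sites shared by the remaining libraries was again 13, and without WT 2 it was 17. The shared sites numbered 3 at Dnmt3a, 3 at Tet3, 2 each at Dnmt1 and Tet2, 1 each at Uhrf1, Dnmt3b and Dnmt3l, and 0 at Tet1.

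WT 2 had the lowest fold at 10 of the 13 shared sites. Over all 16405 shared sites of coding genes it was the lowest at 53.5%, and WT 1, the next, at 13.8%. The exceptions were the Dnmt1 site 21.7 kb into the body and the Tet2 site 37.2 kb in, where WT 1 was the lowest, and the Dnmt3l start, where CDC6 2 was. Folds come from separate peak calls and were not tested across libraries. All stressed libraries lay above both WT libraries at the Dnmt3a sites with annotated starts and at the Tet2 site in the body. The same held at the 5′ end and the annotated start of Tet3, and at no other shared site of the members. How often this order holds over the shared sites of coding genes was not counted.

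The number of peaks per gene was the measure available in each library and was tested to ask whether stress changed how many sites these genes use. Summed over the members it was 46 in WT 1 and 22 in WT 2, 26 and 27 under APH, and 31 and 36 under CDC6. This is 34 ± 17.0 in WT, 26.5 ± 0.707 in APH and 33.5 ± 3.54 in CDC6 (SD, n = 2 libraries each). The WT libraries lay above and below all 4 stressed libraries. As a share of a library's peaks, the 8 windows held 0.0496% in WT 1, 0.0271% in WT 2, 0.0349% and 0.0378% under APH, and 0.0428% and 0.0451% under CDC6. Per 100 kb of window, the median member had 5.48 peaks, against 4.33 for all coding genes and 4.14 for those in the same range of body length. In order of density the genes were Dnmt1, Uhrf1 (8.84), Dnmt3a (6.10), Dnmt3b (5.86), Tet3 (5.09), Tet2 (4.19), Dnmt3l (3.72) and Tet1. The ranges over the 6 libraries overlapped between neighbours in this order.

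**Figure D3:**
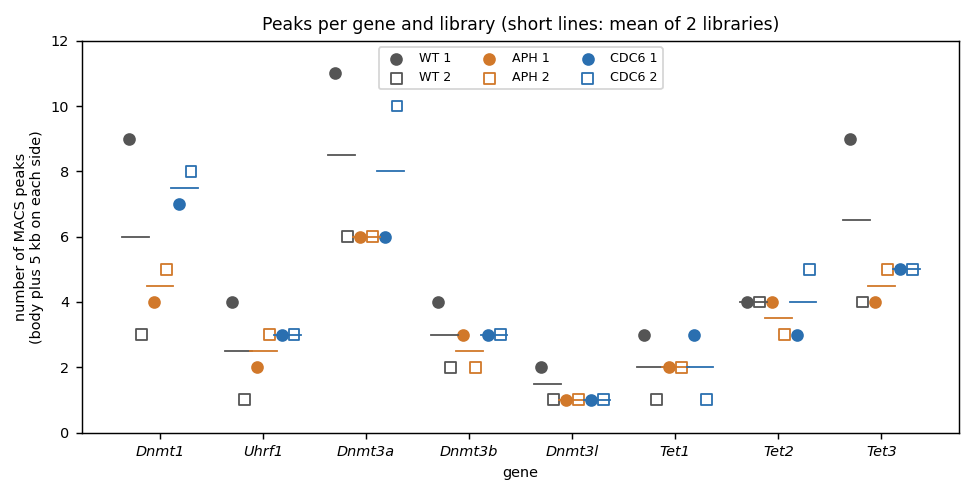
Number of peaks in each gene body plus 5 kb on each side, 1 point per library and a short line for the mean of the 2 libraries of a condition. WT 1 reached 9 at Dnmt1 and Tet3 and 11 at Dnmt3a, where WT 2 had 3, 4 and 6.

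No member passed the test in any comparison, which does not show that their numbers were unchanged. In simulated data the test found 51.5% of genes changed 4-fold. Those genes had a mean of at least 6 peaks, which only Dnmt1 and Dnmt3a reached among the members. The simulated libraries of a condition differed by Poisson sampling and library total alone, without the cell line and medium differences of the WT libraries. The 51.5% may thus not hold for the real data. With limma on log2(scaled number + 1) and Benjamini-Hochberg adjustment over 15143 genes, the 3 comparisons called 0 genes (0%) in all and 0 of 8 members. At an unadjusted p under 0.05 limma gave 1240 genes (8.19%) for APH against WT, 1370 (9.05%) for CDC6 against WT and 1511 (9.98%) for APH against CDC6, and no member was among them. The comparisons share libraries, so they are not independent of each other. The WT libraries, of different cell lines and media, enter every comparison through the shared estimate of the spread. All differences below are on this log2 scale, with the standard error of the fit.

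Against WT, aphidicolin gave fitted differences from -0.16 ± 0.305 at Dnmt3a to 0.33 ± 0.417 at Uhrf1, with adjusted p from 0.817 to 0.976 in limma. The median of the 8 was 0.03, and over all genes tested it was 0.04. For CDC6 against WT the highest difference was 0.59 ± 0.402 at Dnmt1 (limma adjusted p = 0.681), followed by 0.48 ± 0.417 at Uhrf1, and the lowest was -0.18 ± 0.214 at Dnmt3l. The median was 0.13 for the members and 0.12 for all genes. APH minus CDC6 ran from -0.57 ± 0.402 at Dnmt1 (limma adjusted p = 0.755) to 0.13 ± 0.457 at Tet1, with medians of -0.11 for the members and -0.11 for all genes. The maintenance pair thus had the highest CDC6 values and the erasers lay between -0.08 and 0.14, all within 2 standard errors of 0.

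These values changed with the WT library used. Without WT 1, CDC6 minus WT became 1.14 at Dnmt1 and 1.03 at Uhrf1, with limma adjusted p of 0.0824 and 0.114, and without WT 2 it became 0.03 and -0.09. With the bases covered by peaks in place of their number, as log2(scaled kb + 1), CDC6 minus WT was 1.03 and APH minus CDC6 -1.41 at Dnmt1, and APH minus CDC6 was -1.05 at Dnmt3a and -1.05 at Tet3, with limma adjusted p of at least 0.316. In the fits without a WT library, the single WT library left is assumed to vary like the other groups.

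**Figure D4:**
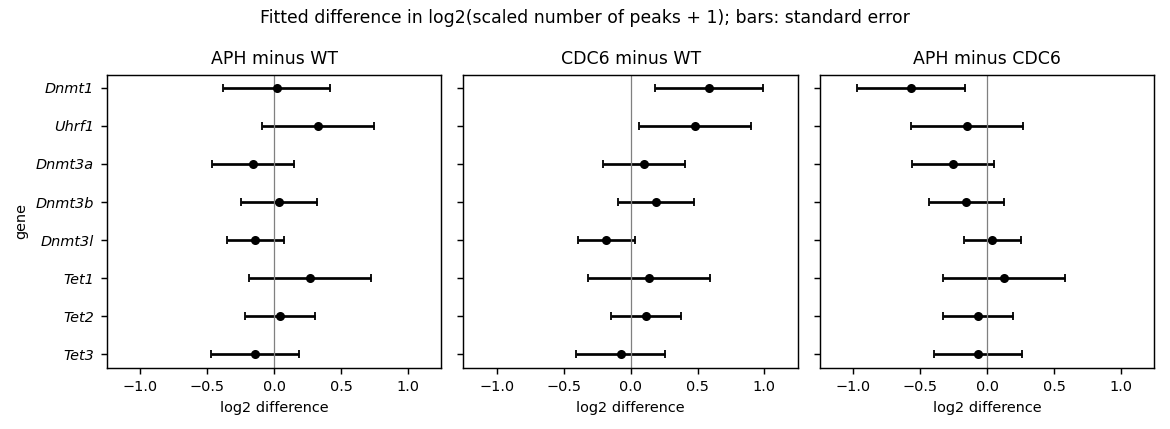
Fitted differences in log2(scaled number of peaks + 1) for each gene in the 3 comparisons, with bars of 1 standard error of the limma fit. The points lie between -0.57 and 0.59, and Dnmt1 is the highest for CDC6 minus WT and the lowest for APH minus CDC6.

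Other genes of the pathway were taken as a list of 43, chosen by function: copying of methylation at the fork, partners of new methylation, methyl-CpG readers, removal of oxidised bases, TET partners and methyl donor supply. The gene table matched 42 of them, since Dnmt3c is entered there as a pseudogene. An origin lay at 30 in the WT list (71.4%), 30 in APH (71.4%) and 35 in CDC6 (83.3%), 28 had one in all 3 lists, and 6 had none. The shares over all coding genes were 48.1%, 53.6% and 58.5%, and no test was made. Over the 7860 coding genes in the members' range of body length they were 60.5%, 66.6% and 71.5%. No share matched to the lengths of the 42 genes was computed. The list had a median of 5.24 peaks per 100 kb, close to the 5.48 of the 8 members. In the order WT, APH and CDC6, an origin lay at 7, 7 and 8 of the 8 methyl-CpG readers, and at 5, 4 and 5 of the 5 TET partners and cofactor enzymes. It lay at 5, 5 and 6 of the 8 genes for copying at the fork, and at 4, 4 and 4 of the 6 partners of new methylation. For methyl donor supply it was 3, 4 and 5 of 6, and for removal of modified bases 6, 6 and 7 of 9.

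Of the 42, 39 had enough peaks for the test and 0 passed it in any comparison. For APH minus WT the values ran from -1.20 at Pcna, the sliding clamp that DNMT1 binds at the fork, to 0.70 at Zbtb38, a reader of methylated DNA. For CDC6 minus WT they ran from -0.53 at Idh2, an isocitrate dehydrogenase that makes the TET cofactor 2-oxoglutarate, to 0.68 at Usp7, a deubiquitinase that binds DNMT1. For APH minus CDC6 they ran from -1.83 at Pcna (limma adjusted p = 0.239) to 0.53 at Zfp57, which guards methylation at imprinted genes. Pcna had 2 and 1 peaks in WT, 0 in each APH library and 3 and 2 in CDC6, and no list held an origin there. It was named as the lowest of 39 genes. How often APH numbers lie apart like this over all genes was not counted. Apex1, an endonuclease of base excision repair, was the densest with 2 peaks in every library and 16.3 per 100 kb, and Dppa3, which protects methylation after fertilisation, had none.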

How the data were processed

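Short nascent strands were sequenced from 6 mESC libraries, and the Input sample had no list in use. The submitters' processing notes name MACS2 2.0.10, BWA 0.7.10, bedtools 2.23.0, Picard 1.107, SAMtools 0.1.19 and FastQC, and the builds mm10, GRCm38 and mm9. What each tool did, and with which settings, the sources used here do not state. Deposited peak lists have the layout of MACS2 and give, as the authors' values, a fold ratio over 1 common control, −log10 p-value and q-value, and a score that is derived from the q-value. They end at a q-value of 0.1. The deposited condition lists hold 2 scores per origin of unstated meaning, which were not used, and the way libraries were combined into them is not stated. The second list of each library, also with 2 deposited scores, served only to check labels.

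The members and gene lists were chosen with earlier results of these data known. All 8 members were named, with every listed origin, the sites with a peak in all 6 libraries and the site with the highest −log10 q-value. Of the pathway list, genes past the test or, with none, the highest and lowest difference and density were named. Overlap meant at least 1 bp. A start window was 300 bases of RefSeq GRCm38.p6. The comparison of start windows and the motif search were chosen after the data were seen. All 8 members and their 15 starts matched the RefSeq tables, which name no start for some genes.

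Peaks were assigned to a gene by midpoint, scaled to the mean total of the 6 libraries, and log2(number + 1) was tested by limma 3.58.1 (R 4.3.3, lmFit, then eBayes with trend) over 15143 coding genes with a mean of at least 1 peak. All conditions were fitted together, and the threshold was an adjusted p of 0.05. The script was tested on simulated data, drawn as Poisson numbers with the real gene means and library totals. In them 200 genes with a mean of at least 6 peaks were changed 4-fold, up or down, in the APH libraries. For APH minus WT, 51.5% were recovered and 0 unchanged genes were called. Alternatives were the window, the assignment, the peaks used, the scaling, the pseudocount, the filter, covered bases, a replicate block and leaving out each library.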

Additional observations from a re-analysis of the deposited data

How the results depend on the processing

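Counts of called genes depended on scaling and on the WT libraries. With the same number of strongest peaks (71435) in each library, limma called 391 genes for APH minus WT, 460 for CDC6 minus WT and 422 for APH minus CDC6, of which 372, 442 and 399 had equal values in both libraries of every group. Without scaling it called 375, 384 and 328, of which 334, 359 and 318 had such equal values. Gene bodies without flanks gave 8 for APH minus CDC6. Leaving out 1 library gave 0 to 174, 0 to 248 and 0 to 195 calls. The non-zero counts came without WT 1 (0, 248 and 85) and without WT 2 (174, 1 and 195), and no member was called in any of these fits. The lowest adjusted p of a member was 0.0824 on leaving out a library and 0.316 otherwise. Same-numbered libraries did not deviate together (correlations of -0.13, 0.01 and -0.05 over 15143 genes), and the replicate block called 0 genes in each comparison, with 1053, 1061 and 1266 at an unadjusted p under 0.05.

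Most member differences were near 0, and 59 of 384 values changed sign, 30 of them on leaving out a library. Others kept their sign and moved by over 1.5 times: 16 of 24 by covered bases, a measure on another scale, 11 without flanks, 11 without scaling, 10 with peaks of −log10 q of at least 2, 10 with the same number of strongest peaks (CDC6 minus WT at Dnmt3l became -0.79), 5 with 10 kb flanks, 3 with overlap in place of the midpoint, 1 with a pseudocount of 0.5, and 42 of 144 on leaving out a library. With 10 kb flanks, APH minus WT became -0.095 at Dnmt1, -0.092 at Dnmt3b, 0.41 at Dnmt3l and -0.081 at Tet2, CDC6 minus WT became 0.51 at Dnmt3l and -0.014 at Tet2 and APH minus CDC6 became -0.100 at Dnmt3l. Without flanks, APH minus WT became -0.18 at Dnmt3b and -0.037 at Tet1 and CDC6 minus WT became -0.073 at Tet1. With peaks of −log10 q of at least 2, APH minus WT became -0.065 at Dnmt1 and -0.21 at Dnmt3b, CDC6 minus WT became -0.056 at Dnmt3a, -0.26 at Dnmt3b and 0.15 at Tet3 and APH minus CDC6 became 0.051 at Dnmt3b and -0.26 at Tet1. With the same number of strongest peaks, CDC6 minus WT became -0.14 at Dnmt3a and APH minus WT became -0.16 at Tet2. Without scaling, APH minus WT became -0.21 at Dnmt1, -0.16 at Dnmt3b and -0.16 at Tet2 and CDC6 minus WT became -0.063 at Dnmt3a and -0.029 at Tet2. By covered bases, APH minus WT became -0.39 at Dnmt1 and -0.23 at Tet1, APH minus CDC6 became -0.066 at Dnmt3l and CDC6 minus WT became -0.78 at Tet1 and 0.49 at Tet3.

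When libraries were left out 1 at a time, APH minus CDC6 ran from -0.35 to 0.036 at Dnmt3b, -0.0060 to 0.087 at Dnmt3l, -0.43 to 0.70 at Tet1, -0.29 to 0.15 at Tet2, -0.23 to 0.092 at Tet3 and -0.39 to 0.083 at Uhrf1. APH minus WT ran from -0.54 to 0.57 at Dnmt1, -0.44 to 0.13 at Dnmt3a, -0.24 to 0.31 at Dnmt3b, -0.36 to 0.076 at Dnmt3l, -0.15 to 0.67 at Tet1, -0.094 to 0.19 at Tet2, -0.54 to 0.25 at Tet3 and -0.24 to 0.88 at Uhrf1. CDC6 minus WT ran from -0.18 to 0.39 at Dnmt3a, -0.089 to 0.46 at Dnmt3b, -0.40 to 0.036 at Dnmt3l, -0.43 to 0.70 at Tet1, -0.11 to 0.34 at Tet2, -0.47 to 0.32 at Tet3 and -0.089 to 1.03 at Uhrf1. The cause of these changes was not tested. With the peaks of either library in place of a list, 8 members had a peak in each condition, since every member had at least 1 peak in every library. With only the peaks of library 1 that overlapped a peak of library 2, the members with a peak numbered 8 in WT, 8 in APH and 7 in CDC6. When a library was left out, sites with a peak in all remaining libraries numbered 13 to 17. Peaks carry no read numbers, so depth could not be weighed.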

Other observations

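The Tet2 start window is itself repetitive. Its longest stretch that occurs again within the 300 bases is 43 bases, and 46 of 21045 start windows of coding genes (0.219%) hold one at least as long. The longest repeat in the other 14 member windows ranged from 0 to 13 bases. The sources used here do not state how reads that fit several places were treated, and its part in the folds at Tet2 was not tested.

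Some other genes had nearly the same numbers of peaks by library. Nearest to Dnmt1 over the 6 libraries were Foxp4 (distance 0.169 on the log2 scale, with 9, 3, 4, 5, 7 and 7 peaks) and Snx9 (0.237). Nearest to Dnmt3a were Patj (0.363) and Sipa1l1 (0.378), and nearest to Tet3 were Pgm5 (0.149) and Wdr59 (0.261). The distance was Euclidean over log2(scaled number + 1), computed for members with at least 24 peaks summed over the libraries.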
